A study of Mus musculus with 11 samples.

Results

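The genes examined were the 4 mouse pyruvate dehydrogenase kinases (Pdk1, Pdk2, Pdk3 and Pdk4), the catalytic subunits of the 2 pyruvate dehydrogenase phosphatases (Pdp1 and Pdp2), 3 core subunits of the pyruvate dehydrogenase complex (Pdha1, Pdhb and Dlat) and pyruvate carboxylase (Pcx). They were picked by gene symbol, as the sense-strand representative transcript of each gene, and all 10 had a value in each of the 11 libraries, out of 29955 gene symbols in the files.

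RNA-seq was made from im-scWAT, a preadipocyte line derived from the inguinal subcutaneous fat of mice and immortalized with the SV40 large T antigen. The time course held 2 libraries at day 0, when differentiation was induced, and 1 library each at day 4 and day 8 with 0.5 µM rosiglitazone (ROS), an agonist of the nuclear receptor PPARγ, and without it. The labels give one day 0 library to the ROS arm and one to the other arm, but both were harvested at induction, so they were treated as 2 samples of 1 group (sample 1 carries the ROS label). The other 5 libraries came from day 8 adipocytes that had received ROS and carried 2 retroviruses, one making a short hairpin RNA against mouse Jmjd1a (gene symbol Kdm3a), a histone H3 lysine 9 demethylase, from a U6 promoter, and one expressing human JMJD1A with a V5 tag from the viral promoter (LTR). The human protein was wild type (WT A and WT B, 1 library each), S265A, in which the serine phosphorylated by protein kinase A was changed to alanine, S265D, in which aspartate stands in for phosphoserine, or S265D-H1120Y, which in addition lacks a catalytic histidine. All adipocyte libraries shared an inducing mixture of indomethacin, dexamethasone, IBMX, insulin and T3. The labels have ROS withdrawn on day 7 for the last day, whereas the methods of the study keep it until day 8, and which was done was not settled. The labels do not say whether WT A and WT B, or the 2 day 0 samples, came from separate cultures.

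The pyruvate dehydrogenase complex turns pyruvate made in glycolysis into acetyl-CoA inside mitochondria. It so controls the entry of glucose carbon into acetyl-CoA, which can then be burned or made into fat. Its E1 enzyme, built from Pdha1 and Pdhb subunits, removes carbon dioxide from pyruvate, and its E2 enzyme, Dlat, passes the acetyl group to coenzyme A. The kinases phosphorylate Pdha1 and switch the complex off, and the phosphatases switch it on again. Pcx is not part of the complex: it carries pyruvate the other way, to oxaloacetate, which in fat cells feeds fatty acid synthesis and the making of glycerol. Pdk4 is known as the kinase that follows fatty acid use and fasting, and as a target of the PPAR receptors.

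Sequencing depth, worked out from the mapped bases and the FPKM of each transcript, ran from 3.10 to 5.29 Gb of mapped bases a library, with a median of 4.64 Gb. The paired libraries differed in how alike they were, with a Pearson r of log2(FPKM + 0.1) across 13615 genes of 0.994 between the day 0 samples and 0.918 between WT A and WT B. Genes are not independent replicates, so these are descriptions. Kdm3a, the target of the hairpin, lay at 15.1 to 23.2 FPKM in the time course and 13.0 to 28.5 FPKM in the transduced cells. The knockdown was thus not visible at this level, and any reads from the human transgene were not told apart from mouse ones. By immunoblot and qPCR, the study reports depletion of the mouse JMJD1A by the hairpin. The adipocyte markers Adipoq, Fabp4, Plin1, Cidec, Lep and Pparg summed to 267 and 268 FPKM in the day 0 samples and to between 9151 and 35150 FPKM in the other 9 libraries. Ptprc and Emr1, which define leukocytes and macrophages, and Ckm and Myod1, which define muscle, were at 0 in all 11 libraries. Other markers in these lists were not at 0. Cd68 reached 21.7 FPKM in S265D-H1120Y, Csf1r 0.331 FPKM in day 0 sample 2 and Acta1 19.3 FPKM in WT B.

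The 4 kinase genes lie on different chromosomes of mm9 (NCBI build 37). Their promoters are printed below as the 250 bases before the annotated transcript start, because the 4 genes went different ways in the same libraries. Capitals mark the motifs, searched for on both strands as exact matches. These were the nuclear receptor half-site AGGTCA, the forkhead site GTAAACA, the hypoxia response core ACGTG and the GC box GGGCGG. The half-site is a part of a full receptor element, and full elements were not searched for.
Pdk1 (chr2:71711079-71711328, plus strand): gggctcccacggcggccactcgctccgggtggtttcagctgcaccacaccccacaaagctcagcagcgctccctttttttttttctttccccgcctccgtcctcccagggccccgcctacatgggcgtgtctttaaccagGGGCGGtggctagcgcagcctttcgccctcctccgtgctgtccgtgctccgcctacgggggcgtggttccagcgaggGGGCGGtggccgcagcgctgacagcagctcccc
Pdk2 (chr11:94902686-94902935, minus strand): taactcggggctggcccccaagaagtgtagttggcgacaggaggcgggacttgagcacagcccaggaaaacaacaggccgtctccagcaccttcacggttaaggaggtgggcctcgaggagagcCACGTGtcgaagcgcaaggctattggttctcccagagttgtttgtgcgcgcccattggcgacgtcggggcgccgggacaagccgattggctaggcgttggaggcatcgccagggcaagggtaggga
Pdk3 (chrX:91077435-91077684, minus strand): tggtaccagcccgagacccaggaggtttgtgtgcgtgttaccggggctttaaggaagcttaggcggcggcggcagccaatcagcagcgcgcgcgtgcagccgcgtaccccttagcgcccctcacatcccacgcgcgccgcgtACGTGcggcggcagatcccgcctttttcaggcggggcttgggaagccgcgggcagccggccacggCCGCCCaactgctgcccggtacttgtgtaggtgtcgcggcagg
Pdk4 (chr6:5446279-5446528, minus strand): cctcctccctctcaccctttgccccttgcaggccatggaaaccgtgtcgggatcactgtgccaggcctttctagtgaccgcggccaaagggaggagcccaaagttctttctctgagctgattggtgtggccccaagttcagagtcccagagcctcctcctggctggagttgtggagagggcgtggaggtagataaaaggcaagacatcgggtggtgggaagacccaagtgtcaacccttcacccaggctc
The Pdk1 window held 2 GC boxes, and the Pdk3 window held 1 GC box and 1 hypoxia response core. The Pdk2 window held CACGTG, a palindrome read as ACGTG on each strand and so counted 2 times. The Pdk4 window held none of the 4 motifs. Over 20041 promoters of the same length, 45.7% held the GC box, 18.2% the hypoxia core, 11.8% AGGTCA and 2.63% the forkhead site. Among the 10 genes, 6 held the GC box (Pdk1, Pdk3, Pdp1, Pdp2, Pdhb and Dlat), 4 the hypoxia core (Pdk2, Pdk3, Pdp2 and Pdhb), 1 AGGTCA (Pdp1) and 0 the forkhead site. The GC content was 68.0% for Pdk1, 62.4% for Pdk2, 69.2% for Pdk3 and 58.8% for Pdk4, against a median of 56.4% over all promoters.

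In preadipocytes Pdk3 was the highest kinase, and in adipocytes Pdk2 or Pdk4 took its place. FPKM, which divides the reads of a transcript by its length and by library depth, allows levels to be compared between genes. Pdk3 (chrX:91009955-91077434) stood at 33.1 and 30.3 FPKM at day 0, and made up 56.1% and 52.7% of the summed kinase FPKM. At day 4 it was at 14.3 FPKM without ROS and 12.3 FPKM with ROS, and at day 8 at 14.0 FPKM without ROS and 5.24 FPKM with ROS. Every adipocyte library of the time course lay below both day 0 samples, and the lowest was day 8 with ROS, where Pdk3 was 2.15% of the kinase sum.

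Pdk2 (chr11:94887572-94902685), the kinase found in most tissues, went the other way. It was the lowest kinase at day 0, at 4.20 and 5.00 FPKM. It was at 30.4 FPKM at day 4 without ROS and 36.6 FPKM with ROS, and at 24.2 FPKM at day 8 without ROS and 72.3 FPKM with ROS. All 4 adipocyte libraries were above both day 0 samples, and Pdk2 was the highest kinase in both day 4 libraries and at day 8 without ROS, with 44.6% (day 4 without ROS), 49.5% (day 4 with ROS) and 39.0% (day 8 without ROS) of the kinase sum.

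Pdk4 (chr6:5433351-5446278) was at 6.71 and 7.35 FPKM at day 0. It was at 13.3 FPKM at day 4 without ROS, 14.2 FPKM at day 4 with ROS and 10.4 FPKM at day 8 without ROS. In the day 8 library with ROS it was at 145 FPKM, above every other kinase value of the time course, and made up 59.3% of the kinase sum. Pdk1 (chr2:71711329-71741915), which is known to rise with hypoxia, was at 15.0 and 14.8 FPKM at day 0, at 10.2 and 10.8 FPKM at day 4 without and with ROS, and at 13.4 and 21.9 FPKM at day 8 without and with ROS. For Pdk1, both day 4 libraries lay below both day 0 samples, and the day 8 libraries lay on either side of the day 0 samples.

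**Figure D1:**
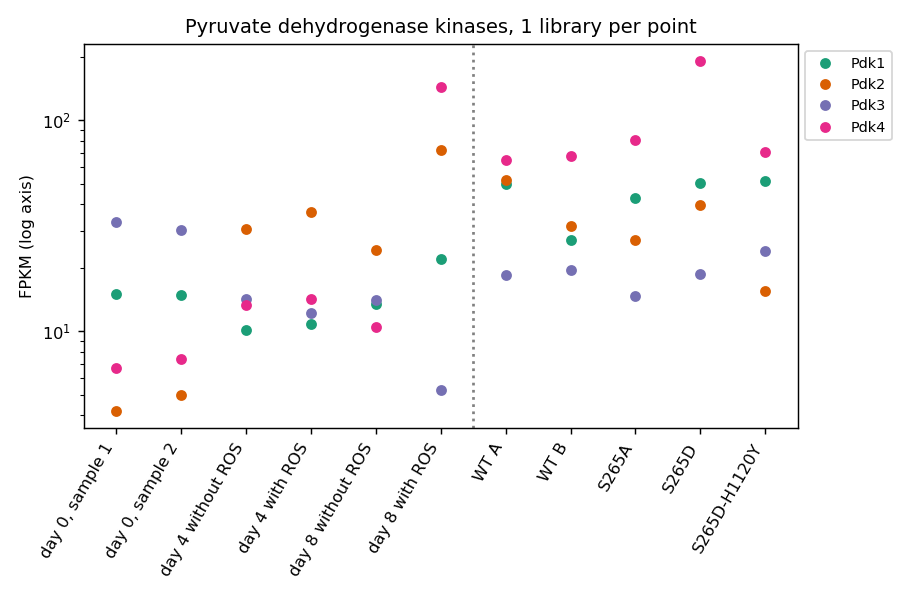
FPKM (log axis) of the 4 kinase genes in each of the 11 libraries, 1 point a library, with the time course left of the dotted line and the transduced day 8 adipocytes right of it. Pdk3 is the highest point at day 0, Pdk2 in 3 of the 4 time-course adipocyte libraries and Pdk4 at day 8 with ROS (145 FPKM), with Pdk4 highest of all in S265D (190 FPKM).

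The summed kinase level hid these exchanges. It was 59.1 and 57.5 FPKM at day 0, 68.2 and 73.9 FPKM at day 4 without and with ROS, and 62.1 FPKM at day 8 without ROS. Only the day 8 library with ROS stood apart in the time course, at 244 FPKM. In the transduced cells, the sum was 185 FPKM in WT A, 146 in WT B, 165 in S265A, 299 in S265D and 162 in S265D-H1120Y.

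**Figure D2:**
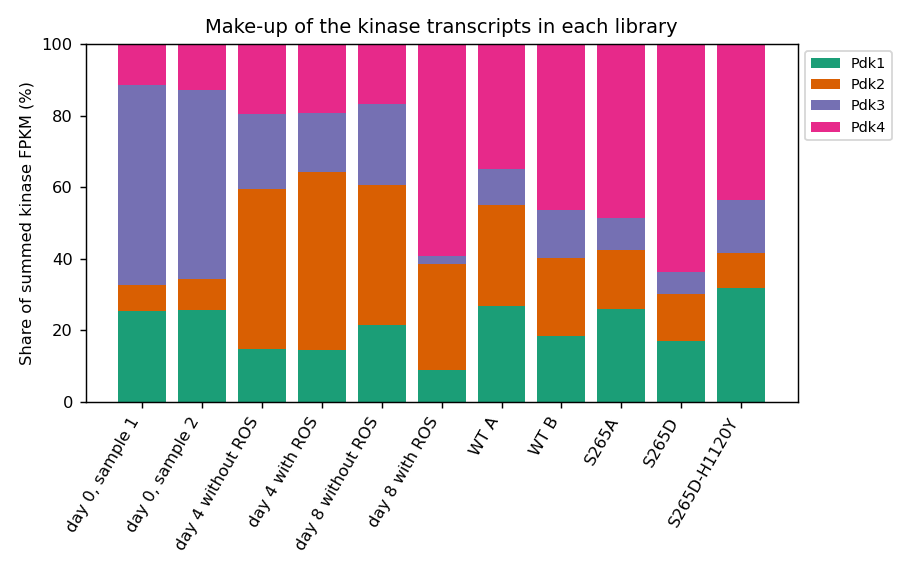
Share (%) of the summed FPKM of Pdk1, Pdk2, Pdk3 and Pdk4 held by each kinase, 1 stacked bar a library. Pdk3 holds 56.1% and 52.7% at day 0, Pdk2 is the widest part in 3 of the 4 time-course adipocyte libraries, and Pdk4 holds 59.3% at day 8 with ROS and 63.6% in S265D.

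Core subunits rose together by day 4. Pdhb (chr14:8998505-9005506), the beta subunit of E1, was at 57.1 FPKM in each day 0 sample, at 320 and 402 FPKM at day 4 without and with ROS, and at 359 and 498 FPKM at day 8. Pdha1 (chrX:156560151-156576268), the alpha subunit that the kinases phosphorylate, was at 53.5 and 49.1 FPKM at day 0, at 186 and 194 FPKM at day 4, and at 129 and 192 FPKM at day 8 without and with ROS. Dlat (chr9:50442738-50467885) was at 15.7 and 14.3 FPKM at day 0, at 82.7 and 103 FPKM at day 4, and at 56.5 and 141 FPKM at day 8. For these 3 subunits no adipocyte library overlapped with the day 0 samples. How many of all genes separate like this, or as Pdk2 and Pdk3 do above, was not worked out.

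Pcx (chr19:4594319-4621752) had the widest change of the 10. It was at 22.6 and 22.8 FPKM at day 0, at 587 and 735 FPKM at day 4 without and with ROS, and at 582 and 637 FPKM at day 8. At day 0, 24.1% and 24.0% of the detected genes were higher than Pcx, against 0.500% to 1.39% in the other 9 libraries. Its promoter window is printed because of that change, and it held none of the 4 motifs, at a GC content of 58.0%.
Pcx (chr19:4594069-4594318, plus strand): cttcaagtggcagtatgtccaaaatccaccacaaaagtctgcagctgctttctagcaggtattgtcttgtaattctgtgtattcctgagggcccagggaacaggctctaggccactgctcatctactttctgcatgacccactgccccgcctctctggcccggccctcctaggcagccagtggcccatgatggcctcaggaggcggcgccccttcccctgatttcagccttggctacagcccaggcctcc
The phosphatases were low in every library. Pdp1 (chr4:11885332-11893597) ran from 2.99 FPKM in WT A to 7.80 FPKM at day 4 without ROS, and Pdp2 (chr8:107115368-107120749) from 3.99 FPKM in a day 0 sample to 8.93 FPKM in WT A. The kinase sum divided by the phosphatase sum was 6.73 and 7.43 at day 0, 5.27 and 7.72 at day 4 without and with ROS, and 6.23 and 25.0 at day 8.

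**Figure D3:**
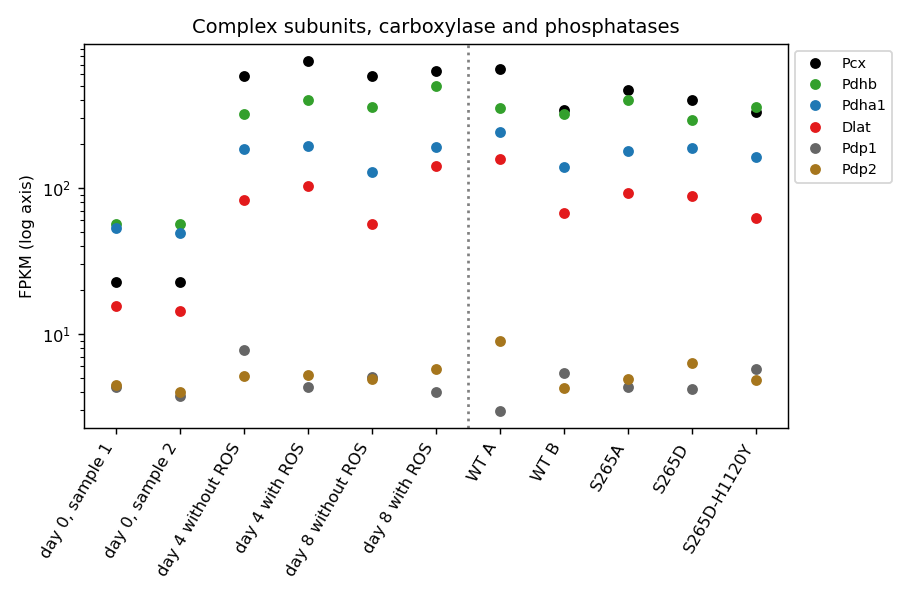
FPKM (log axis) of the 3 core subunits, pyruvate carboxylase and the 2 phosphatases in each library, 1 point a library, with the time course left of the dotted line and the transduced cells right of it. Pcx goes from 22.6 and 22.8 FPKM at day 0 to at least 331 FPKM in the other 9 libraries, while Pdp1 and Pdp2 stay under 9 FPKM throughout.

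Differentiation was tested with limma on log2(FPKM + 0.1) over 16400 genes, with the 2 libraries of a day as its samples, so that the difference between the ROS arms counted as spread, and with a Benjamini-Hochberg adjusted p of 0.05 as the threshold. Fold changes on this scale understate those of low genes. From day 0 to day 4, 5 of the 10 genes rose (Pdk2, Pdha1, Pdhb, Dlat and Pcx) and 0 fell, where 19.8% of all genes rose and 16.7% fell. From day 0 to day 8 the same 5 rose and Pdk3 fell, where 23.6% of all genes rose and 22% fell. The median log2 fold change of the 10 genes was 1.42 at day 4 and 2.04 at day 8, against 0.01 and -0.03 over all genes. In bulk samples fewer cells of a type and less RNA per cell cannot be told apart.

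Pcx rose by 4.85 on the log2 scale at day 4 (limma adjusted p = 0.000202) and by 4.74 at day 8 (SE 0.171, adjusted p = 0.000195). Pdhb rose by 2.89 at day 8 (SE 0.221, adjusted p = 0.00113) and Pdha1 by 1.62 (SE 0.225, adjusted p = 0.00544). Dlat rose by 2.57 at day 8 (SE 0.442, adjusted p = 0.00951). Pdk2 rose by 2.84 at day 4 (adjusted p = 0.0138) and by 3.16 at day 8 (SE 0.516, adjusted p = 0.00834). Pdk3 fell by 1.87 on the log2 scale at day 8 (SE 0.460, adjusted p = 0.0252), while its difference of -1.25 at day 4 missed the threshold (adjusted p = 0.0870).

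Pdk4 missed the threshold at day 8. Its log2 difference was 2.46, with a 95% interval from -0.53 to 5.44 and an adjusted p of 0.142, and the 2 day 8 libraries were at 10.4 and 145 FPKM. Pdk1 (0.20, adjusted p = 0.548), Pdp1 (0.16, adjusted p = 0.692) and Pdp2 (0.32, adjusted p = 0.147) missed it at day 8 too. Between day 4 and day 8, 0 of the 10 genes passed in either direction, where 0.104% of all genes rose and 0.0061% fell.

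**Figure D4:**
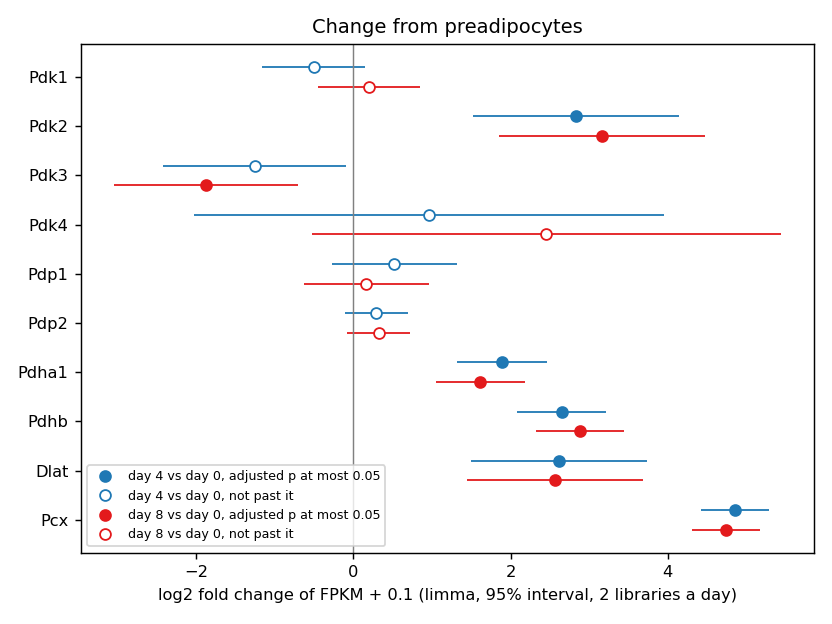
log2 fold change of FPKM + 0.1 from day 0 to day 4 (blue) and to day 8 (red), as the limma estimate with its 95% interval, 2 libraries a day, with filled points at an adjusted p of at most 0.05. Pcx lies farthest right (4.85 and 4.74), Pdk3 is the one filled point left of 0, and the interval of Pdk4 at day 8 runs from -0.53 to 5.44.

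Which libraries carried these calls was looked at by leaving out each of the 6 in turn and by fitting each ROS arm alone against the day 0 pair. Pcx and Pdhb passed the threshold at both days in 6 of 6 such fits. Pdk2 and Dlat passed in 2 of 6 at day 4 and in 4 of 6 at day 8: at day 8 Pdk2 missed without day 0 sample 1 (adjusted p = 0.0714) or sample 2 (0.0613), and Dlat without sample 1 (0.0708) or sample 2 (0.0720), and at day 4 each missed without any 1 of its day 0 or day 4 libraries (adjusted p of 0.0654 to 0.0978 for Pdk2 and 0.0554 to 0.0900 for Dlat). Pdha1 missed without day 0 sample 2 at day 4 (0.0528) and at day 8 (0.0535). Pdk3 at day 8 passed in 2 of 6, missing without day 0 sample 1 (0.133) or 2 (0.113) and without day 4 with ROS (0.0566) or without ROS (0.0557). Its log2 difference stayed below 0 in all 6, from -2.57 to -1.17.

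Pdk4 passed at day 8 only when one day 8 library was left out: at a log2 change of 0.57 without the library with ROS (adjusted p = 0.0381) and of 4.35 without the library without ROS (adjusted p = 0.000891). In the ROS arm alone, Pdk4 was 4.35 higher at day 8 than at day 0 (adjusted p = 0.0135), Pdk2 3.95 (0.0137) and Pdk1 0.55 (0.0362), and Pdk3 was lower (-2.57, 0.0136). In the other arm, Pdk2 was 2.38 higher (0.0274) and Pdk3 lower (-1.17, 0.0324), and the Pdk4 difference of 0.57 missed the threshold (0.0668). At day 4, Pdk4 was higher than at day 0 in each arm alone, by 1.01 with ROS (0.0344) and by 0.91 without (0.0437), and Pdk3 was lower, at -1.36 with ROS (0.0261) and -1.14 without (0.0351). These single-arm fits were chosen after seeing the data, they share the day 0 pair, and their spread comes from that pair alone.

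The libraries with and without ROS differed at day 8 for several of the genes and less so at day 4. With 1 library a condition there is no replicate check, and the 2-fold difference in FPKM that the study uses was taken as the mark. At day 8, Pdk4 was 13.9 times as high with ROS as without (145 against 10.4 FPKM), Pdk2 2.99 times (72.3 against 24.2) and Dlat 2.50 times (141 against 56.5). Pdk3 was 0.374 times as high (5.24 against 14.0 FPKM). So 3 of the 10 genes were at least 2-fold higher and 1 at least 2-fold lower, where 4% of all genes were higher and 15.2% lower. The other 6 ran from a ratio of 0.791 for Pdp1 to 1.63 for Pdk1, with Pcx at 1.10.

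The median ratio over all genes at day 8 was 0.857. Whether library scale or a change in the genes lay behind this was not tested. After median-of-ratios scaling, 972 genes were at least 2-fold higher and 1677 at least 2-fold lower, against 622 and 2366 as deposited, and the same 4 of the 10 genes passed the 2-fold mark, with log2 ratios of 4.04 for Pdk4, 1.83 for Pdk2, 1.57 for Dlat and -1.17 for Pdk3. At day 4 the ratio with ROS over without ROS ran from 0.555 for Pdp1 to 1.26 for Pdhb, and 0 of the 10 genes reached 2-fold in either direction, where 2.2% of all genes were higher and 4.51% lower. The 2 day 0 samples gave 0 of 10 in either direction as well, where 1.94% of all genes were higher in sample 2 and 2.96% lower.

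No gene passed limma for a ROS difference shared by days 4 and 8, neither among the 10 (adjusted p of 0.251 to 0.646) nor among all genes, of which 0% rose and 0% fell, although 2901 of 16400 had an unadjusted p under 0.05. With the day 0 pair as the measure of spread (1 residual degree of freedom), 0 of 16400 genes passed for ROS at day 8 and 5011 had an unadjusted p under 0.05. Pdk4 and Pdk3 both had an adjusted p of 0.0972, Dlat of 0.0975, Pdk1 of 0.104 and Pdk2 of 0.111. The ROS difference of Pdk4 was 3.68 larger on the log2 scale at day 8 than at day 4 (SE 0.164, unadjusted p = 0.0021, adjusted p = 0.256). With ROS, Pdk4 was 10.2 times as high at day 8 as at day 4, and without ROS it was 0.785 times as high.

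Fat cell markers moved with the same pair of libraries. At day 8 the 6 adipocyte markers summed to 9151 FPKM without ROS and 35150 FPKM with ROS, but Fabp4 alone made up 7631 and 31402 FPKM of these sums. Of the other adipocyte markers, Cidec was 4.79 times, Adipoq 1.82 times and Plin1 1.61 times as high with ROS, whereas Pparg was lower (231 FPKM without ROS and 140 FPKM with ROS) and Lep was at 0.252 FPKM without ROS and listed at 0 with it. The 6 beige markers Ucp1, Cidea, Elovl3, Cox8b, Ppara and Cpt1b summed to 52.9 and 264 FPKM without and with ROS, and the 4 preadipocyte markers Pdgfra, Dlk1, Ly6a and Cd34 to 550 and 130 FPKM. Their part in the ROS differences was not tested.

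The libraries labelled S265D, S265A and S265D-H1120Y ask what phosphorylation of S265 and the demethylase activity do to these genes. Pdk4 was at 64.6 FPKM in WT A, 68.0 in WT B, 80.4 in S265A, 190 in S265D and 70.6 in S265D-H1120Y, and was the highest kinase in all 5. S265D stood above the other 4, which lay close together. Pdk4 in S265D was 2.87 times the WT mean of 66.3 ± 2.42 FPKM (SD, n = 2), at 2.95 times WT A and 2.80 times WT B, and 2.37 times S265A. In S265D-H1120Y it was 0.371 times its level in S265D, at 1.09 times WT A and 1.04 times WT B.

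Against the WT mean, Pdk4 was the one gene of the 10 that was at least 2-fold higher in S265D and 0 were at least 2-fold lower, where 4.02% of all genes were higher and 5.56% lower. In S265A, 0 of 10 reached 2-fold in either direction, with ratios from 0.648 for Pdk2 to 1.21 for Pdk4, where 3.41% of all genes were higher and 7.55% lower. From S265D to S265D-H1120Y, Pdk4 and Pdk2 were at least 2-fold lower and 0 of 10 higher, where 8.66% of all genes were lower and 5.62% higher. With the WT pair as the measure of spread (1 residual degree of freedom), limma called 0 of 16402 genes in each of these comparisons, with an adjusted p of 1 for each of the 10 genes, and 107 (S265A), 99 (S265D) and 187 (S265D-H1120Y against S265D) genes at an unadjusted p under 0.05.

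Pdk2 was at 52.2 FPKM in WT A, 31.7 in WT B, 27.2 in S265A, 39.6 in S265D and 15.5 in S265D-H1120Y. Its S265D value lay between the WT libraries, and its ratio of 0.392 from S265D to S265D-H1120Y sits beside a WT pair at 42.0 ± 14.5 FPKM (SD, n = 2). Pdk1 was at 49.7 FPKM in WT A, 27.1 in WT B, 42.9 in S265A, 50.7 in S265D and 51.8 in S265D-H1120Y, and Pdk3 ran from 14.7 FPKM in S265A to 24.0 FPKM in S265D-H1120Y.

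WT A and WT B themselves differed for several of these genes. Dlat was at 158 FPKM in WT A and 67.2 in WT B (ratio 0.427), with S265A at 91.8, S265D at 87.9 and S265D-H1120Y at 62.7 FPKM. Pdp2 was at 8.93 FPKM in WT A and 4.30 in WT B (ratio 0.482). Thus 2 of the 10 genes were at least 2-fold lower in WT B and 0 higher, where 10.8% of all genes were lower and 16.4% higher. Pcx (657 against 343 FPKM, ratio 0.522), Pdk1 (ratio 0.545) and Pdha1 (242 against 140 FPKM, ratio 0.578) came close, whereas Pdk4 and Pdk3 hardly differed between the pair. Pcx in the mutants was at 471 FPKM in S265A, 402 in S265D and 331 in S265D-H1120Y, and Pdhb ran from 290 FPKM in S265D to 401 in S265A.

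**Figure D5:**
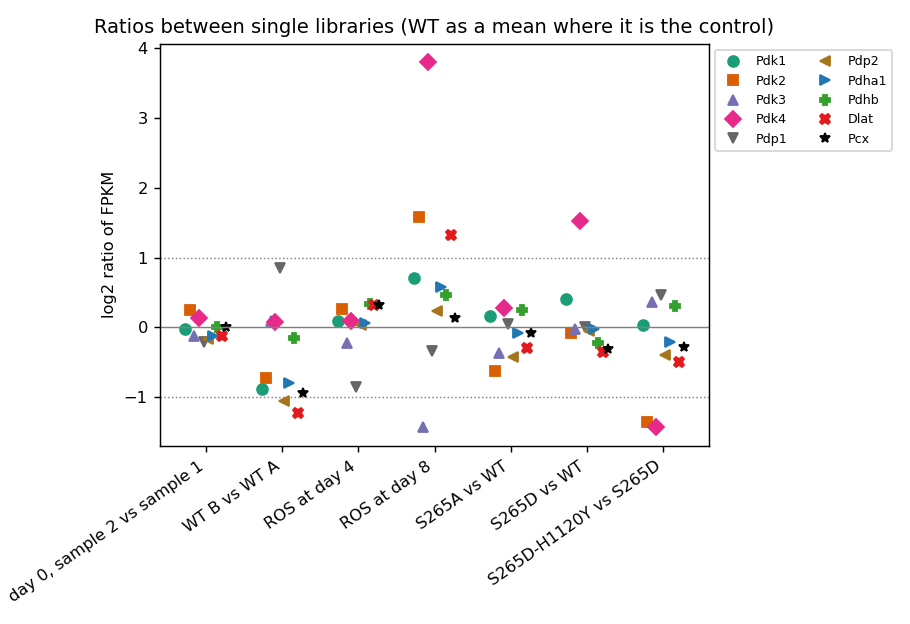
log2 ratio of FPKM for each of the 10 genes in 7 comparisons of libraries, with the 2-fold marks as dotted lines and the WT mean as the base where WT is the control. Pdk4 lies outside the marks at day 8 with ROS over without (ratio 13.9), in S265D over WT (2.87) and in S265D-H1120Y over S265D (0.371), but Dlat and Pdp2 lie outside them in WT B over WT A too.

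Markers also differed among the transduced libraries. The adipocyte markers summed to 14985 FPKM in WT A, 28703 in WT B, 25777 in S265A, 24554 in S265D and 15285 in S265D-H1120Y. Fabp4 made up most of each sum (12393 FPKM in WT A and 26902 FPKM in WT B), and Adipoq (978 in WT A against 738 FPKM in WT B), Plin1 (293 against 158 FPKM) and Cidec (1230 against 808 FPKM) were higher in WT A instead. From WT A to S265D-H1120Y, beige markers summed to 279, 32.6, 51.5, 175 and 89.0 FPKM in the order above. In S265D-H1120Y, Cox8b (57.8 FPKM) and Elovl3 (22.0 FPKM) made up most of the sum. These and Ppara were higher there than in WT B. Ucp1 (0.0528 against 0.724 FPKM), Cidea (2.35 against 7.03) and Cpt1b (4.36 against 7.01) were lower there. Preadipocyte markers summed to 130, 537, 227, 453 and 193 FPKM, of which Ly6a alone held 116, 496, 199, 417 and 165 FPKM. Pdgfra was also highest in WT B, but Cd34 in S265D-H1120Y and Dlk1 in S265A. The 4 leukocyte markers reached 21.7 FPKM in S265D-H1120Y, nearly all of it Cd68, and the 4 muscle markers 19.3 FPKM in WT B, all of it Acta1, and the 3 endothelial markers stayed at or under 3.70 FPKM. Their part in the differences was not tested.

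All 5 transduced libraries were compared with all 6 of the time course for groups that did not overlap. Pdk1 was the one gene of the 10 that was higher in every transduced library (27.1 to 51.8 FPKM) than in any of the time course (10.2 to 21.9 FPKM), and 0 of 10 were lower throughout, where 4.64% of all genes were higher and 6.89% lower. The time-course library of the same day and treatment, day 8 with ROS, was the highest of its 6 for Pdk1, at 21.9 FPKM, and the 2 experiments cannot be told apart from the transduction.

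Most of the other genes of the pathway that passed the test during differentiation rose. Of the other subunits of the complex, both Dld, the E3 enzyme shared with related complexes, and Pdhx, which binds E3, rose from day 0 to day 8 (by 1.44 and 1.85 on the log2 scale), and Pdha2, the testis form of the alpha subunit, was listed at 0. Of 10 genes for lipoic acid attachment and the sister 2-oxoacid dehydrogenases, 9 rose and 0 fell, among them Bckdha of the branched-chain complex (3.84) and Dlst of the 2-oxoglutarate complex (1.42), and Bckdk, the branched-chain kinase, was at 0.41 (limma adjusted p = 0.114).

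Of 10 genes of pyruvate transport and lactate and alanine metabolism, 7 rose and 2 fell by day 8. The mitochondrial pyruvate carrier genes Mpc1 and Mpc2, listed as Brp44l and Brp44, rose by 3.57 and 3.37 on the log2 scale, Ldhb by 3.77 and Gpt by 3.09. Slc16a3, a lactate exporter, fell by 3.10 and Pkm2, the pyruvate kinase gene, fell by 0.99 on the log2 scale, and Ldha was at -0.22 (limma adjusted p = 0.368). Of 11 genes for the fates of acetyl-CoA and oxaloacetate, 8 rose, among them Cs (2.08), which joins the 2 products, Mdh2 (1.41) and Pck1 (3.22). Acly, which makes cytosolic acetyl-CoA from citrate, fell by 0.67 on the log2 scale.

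Of 8 factors known to act on the kinase genes, 5 rose by day 8 (Pparg by 3.23, Ppara by 4.85, Ppargc1a by 4.33, Esrra by 2.34 and Foxo1 by 1.85 on the log2 scale), Hif1a fell by 1.62, and Ppard and Nr3c1 missed the threshold. These counts stand against 23.6% of all genes rising and 22% falling. Of the 41 genes of these lists measured in the single-library comparisons, 5 were at least 2-fold higher at day 8 with ROS than without (Bckdhb, Ldhb, Slc16a1, Pck1 and Ppara). Slc16a3 was the 1 at least 2-fold lower, where 4% of all genes were higher and 15.2% lower. In S265A over the WT mean, 0 were higher and 2 lower (Ldhb and Ppara), where 3.41% of all genes were higher and 7.55% lower. In S265D over the WT mean, 1 was higher (Slc16a3) and 1 lower (Slc25a1), where 4.02% of all genes were higher and 5.56% lower. From S265D to S265D-H1120Y, 1 was higher (Gpt2, 3.08 times) and 5 were lower (Ldhb, Slc16a3, Slc16a7, Pck1 and Ppara). Over all genes 5.62% were higher and 8.66% lower. Within the WT pair, 1 of the 41 was at least 2-fold higher in WT B than in WT A (Pck2, 2.25 times). In the other direction 14 were at least 2-fold lower, among them Ldhb (0.0770 times), Ppara (0.151 times) and Pck1 (0.212 times). Over all genes 16.4% were higher in WT B and 10.8% lower.

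Across the 11 libraries the genes differed in how closely they went with the core subunits. On log2(FPKM + 0.1), Pdk2 had a Pearson r of 0.970 with Dlat and 0.929 with Pdha1, Pcx of 0.980 with Pdhb, and Pdk3 of -0.794 with Pdk2. Pdk4 stood closest to Pdk1 (0.807), and had an r of 0.685 with Dlat, 0.668 with Pdha1, 0.628 with Pdhb and 0.541 with Pcx. Pdp2 had an r of 0.707 with Dlat, 0.682 with Pdha1 and 0.47 with Pdhb. Pdp1 was between -0.463 and 0.193 with the other 9. All of these come from the same libraries, which differ in day and treatment, and are descriptions.

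Out of 12406 other genes with a mean of at least 1 FPKM, those most like Pdk4 over the 11 libraries were AK010403 (r = 0.955), Acaa1b (0.951), Dpep2 (0.948), Snrk (0.947) and Acot13 (0.943). For Pcx they were Sh2b2 (0.999), Alas1 (0.998), A530016L24Rik (0.996), 1190002H23Rik (0.996) and Abhd15 (0.996). For the mean of Pdha1, Pdhb and Dlat they were Pex19 (0.994), Ppargc1b (0.991), Cs (0.990), AK034671 (0.990) and Aldh6a1 (0.988). Acaa1b is a peroxisomal thiolase and Acot13 an acyl-CoA thioesterase, and Alas1 makes the first intermediate of heme.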

How the data were processed

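RNA was sequenced in 11 libraries of im-scWAT cells. Per the labels and the methods of the study, the authors made strand-specific libraries, aligned reads with BWA to UCSC transcripts and to mm9, and deposited FPKM per transcript, 55419 transcripts in all, together with the mapped bases of each, a coverage signal that was used here, with FPKM and transcript length, to work out depth. FPKM were not counts, so no count model was used. Antisense rows were used only to check strand: they held at most 0.769% of the FPKM of both strands for the 10 genes. Of these genes, 7 had 1 transcript, and the representative one was taken for the others.

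The genes, gene lists and tests were chosen with earlier results of these data known. log2(FPKM + 0.1) was tested with limma (3.58.1, R 4.3.3) over genes at 0.1 FPKM or more in any sample of a fit, with Benjamini-Hochberg adjustment at 0.05. Days were compared with 2 libraries a day. Comparisons of single libraries used an FPKM ratio of at least 2 or at most 0.5 and have no test of their own. Nothing says that libraries are separate cultures, so p-values measure only the spread between these libraries, which may be technical. The files give starts counted from 0, and 1 was added. Promoters were read from the NCBI build 37 genome with Python 3.11.15 (pandas 2.3.3, numpy 2.4.6, matplotlib 3.10.9). Genes named outside the 10 were Kdm3a, genes of the fixed lists, and those most alike by Pearson r. From the lists, genes were named that passed a test or were highest. Some that did neither were named too, among them Bckdk, Ppard, Nr3c1, Pdha2, Lep, Ptprc, Emr1, Ckm and Myod1. The fit was tested on simulated data. Alternatives were another pseudocount, an intensity trend, filters, transcript choice, scaling, an arm block and leaving out each library.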

Additional observations from a re-analysis of the deposited data

How the results depend on the processing

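Each value of the 10 genes was recomputed under the other settings. In the tests between days and over ROS, 309 of 310 such values, not counting fits with a library left out or a single arm, kept their direction and their side of the threshold, and the exception was Pdk3 at day 4, which passed after median-of-ratios scaling (adjusted p = 0.0466 by limma). That scaling thus made 1 of the 10 genes lower at day 4 in place of 0, where 3230 of all genes were lower against 2731 in the main fit. In the single-arm fits, added after seeing the data, the day 4 log2 difference of Pdk3 was -1.36 with ROS and -1.14 without. That of Pdk1 was -0.461 with ROS and -0.55 without. Of the counts of the 10 genes in the 2-fold comparisons, none changed under the alternatives run. No value that passed a test or the 2-fold mark, in the main or the other setting, changed sign.

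With one library left out, the number of the 10 genes that rose ran from 2 to 6 at day 4 and from 2 to 7 at day 8, and the number that fell from 0 to 2 at day 4 and from 0 to 1 at day 8. Over all genes, 918 to 4231 rose and 489 to 4116 fell at day 4, and 1432 to 4140 rose and 715 to 5095 fell at day 8, where the arm without ROS alone gave 2398 falling. Fewer samples and fewer degrees of freedom are part of how these fits are built. Between day 4 and day 8, leaving out a library gave 0 to 358 genes rising and 0 to 237 falling, and 0 to 2 and 0 to 1 of the 10 genes; the library without ROS at day 8 was the one whose absence gave 2 (Pdk1 and Pdk4) and 1 (Pdk3).

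Some differences that missed the threshold changed sign when a library was left out. From day 0 to day 8, the log2 difference ran from -0.154 to 0.55 for Pdk1 and from -0.00349 to 0.327 for Pdp1. From day 4 to day 8 it ran from -0.395 to 3.39 for Pdk4, -0.461 to 1.11 for Pdk2, -1.32 to 0.0824 for Pdk3, -0.774 to 0.0605 for Pdp1, -0.0844 to 0.145 for Pdp2, -0.557 to 0.0158 for Pdha1, -0.706 to 0.614 for Dlat and -0.273 to 0.0525 for Pcx. In the single-arm fits the sign changed for Pdp1 (-0.00349 with ROS) and Pdk1 (-0.154 without ROS) at day 8 over day 0, and from day 4 to day 8 for Dlat (0.455 with ROS) and, without ROS, for Pdk2 (-0.327), Pdk4 (-0.346) and Pdp2 (-0.0692). Of the untested ratios under 2-fold, 6 changed sign for S265A over WT and 7 for S265D over WT when WT A or WT B was left out, and 1 for S265D over WT with scaling (Pdp1). Without WT A, the log2 ratio of S265A over WT went from -0.29 to 0.45 for Dlat and from -0.09 to 0.46 for Pcx.

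The 17 genes that rose from day 4 to day 8 became 91 with a pseudocount of 1, 54 with an intensity trend, 9 with no minimum FPKM, 39 with a minimum of 1 FPKM, 9 with the highest transcript, 39 with scaling, and 0 with an arm block and in both single-arm fits. The 1 that fell became 40 with a pseudocount of 1, 9 with one of 0.01, 19 with the trend, 6 with the minimum of 1 FPKM, 8 with scaling, and 0 with the arm block and in both single-arm fits. The cause was not tested.

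The 2-fold counts over all genes changed with the treatment of low values, in the order pseudocount 1, no minimum FPKM and minimum 1 FPKM. For ROS at day 4, higher genes numbered 11, 1395 and 48 and lower ones 28, 1493 and 126. For ROS at day 8 they numbered 219, 1332 and 314 (972 with scaling) and 632, 3698 and 1215. For S265A over WT they numbered 61, 1456 and 145 higher and 149, 2504 and 439 lower. For S265D over WT they numbered 87, 1580 and 193 higher and 102, 2141 and 266 lower. For S265D-H1120Y over S265D they numbered 186, 1903 and 323 higher and 318, 2493 and 634 lower. With one WT library left out, 797 to 1680 genes were higher and 1248 to 1304 lower in S265A, and 830 to 2066 higher and 688 to 1217 lower in S265D, the higher counts of 1680 and 2066 coming without WT B. FPKM give no counts, so no counting interval was computed. The groups share no replicate numbers, so the libraries were paired only by ROS arm, taking each day 0 library by its label. With that arm block, 2959 genes rose and 2564 fell at day 4, 3618 rose and 3370 fell at day 8, and no call of the 10 genes changed.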

Other observations

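The kinase transcripts and the core subunits of the complex did not keep one proportion. The summed FPKM of Pdk1, Pdk2, Pdk3 and Pdk4 divided by the mean FPKM of Pdha1, Pdhb and Dlat was 1.40 and 1.43 in the day 0 samples. It was 0.347 and 0.317 at day 4 without and with ROS, 0.342 at day 8 without ROS and 0.882 at day 8 with ROS. Among the transduced adipocytes WT A had a ratio of 0.735, WT B of 0.832, S265A of 0.736, S265D-H1120Y of 0.830 and S265D of 1.58, so the S265D library alone lay above the day 0 samples. Pcx divided by the same core mean was 0.537 and 0.567 at day 0 and between 1.70 (S265D-H1120Y) and 3.20 (day 8 without ROS) in the other 9 libraries. These ratios were not tested, and messenger RNA levels say nothing of the phosphorylation of the complex.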
